A study of Mus musculus with 12 samples.

Results

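The regions described here are those that the authors listed as differentially methylated between an arsenite line and a control line of mice and whose nearest transcription start site (TSS) belongs to an ion channel or neurotransmitter receptor gene. Members were found by gene symbol: 29 symbol starts of channel and receptor families, from Kcn and Cacn to Htr and Opr, each followed later in the symbol by a digit. The rule found 51 of 1711 listed regions, at 41 genes: 1 of 107 in normal liver, 1 of 57 in non-tumor liver and 49 of 1547 in tumors. Of the 41 genes, 40 encode channel or receptor subunits or their auxiliary subunits; Adrbk2, now named Grk3, encodes a receptor kinase and came in through its older symbol.

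Ion channels let sodium, potassium, calcium or chloride cross the cell membrane, and their pores open on voltage, ligands, temperature or irritants. Neurotransmitter receptors either form such a pore themselves or act through G proteins. Many of these genes are best known from neurons, heart and muscle. Hepatocytes do not fire action potentials, but liver tissue also holds stellate cells, nerve fibres, vessel wall and blood cells in which some of the genes are known to act. DNA methylation at CpG sites near a start site is often, though not always, found with low transcription, while methylation inside gene bodies has no single relation to it. No RNA was measured here.

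Liver DNA of C3H/HeN mice, an inbred strain whose old males often develop liver tumors, was studied by RRBS, reduced-representation bisulfite sequencing, which reads CpG methylation in fragments cut by MspI at CCGG. The 12 samples of the series, 3 per group and all 74 weeks old, were F2 males: non-tumor liver of the control line (CCTn), and normal liver, non-tumor liver and tumor of the arsenite line (AAN, AATn and AATt), whose F1 parents had met arsenite in the womb. The control groups for normal liver (CCN) and tumor (CCTt) belong to an earlier deposit and enter only through the authors' comparisons. No sorting of cells is described, so a change in the mix of cell types and a change within cells cannot be told apart. Whether a group's 3 samples are 3 different mice is not stated in the labels.

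Each listed region carries 1 value, the methylation difference between 3 samples and 3 samples, in percentage points. Values per sample, read depth and errors are not part of the lists used here, so no replicate spread can stand beside a difference and no test was run. Every listed difference was at least 20 points in size and rested on at least 3 CpG sites, of which at least 1 had been called differentially methylated (a DMC). A gene that is not listed was therefore not shown to be alike in both lines. The sources used here do not define the sign; a positive value is taken to mean more methylation in the arsenite line, and every direction turns over if the sign runs the other way. The lists hold no expression data, so the tissue labels could not be checked against marker genes; of 20 marker genes of liver cell types and neurons, 5 were nearest to a tumor region and none to a region of the other lists. In the authors' deposited table these were the leukocyte genes Ptprc (-33.03 points, all 12 sites DMCs) and Cd74 (-23.7 points), 2 of 4 leukocyte markers, the endothelial genes Kdr (25.3 points) and Cdh5 (-21.6 points), 2 of 3 endothelial markers, and the neuronal gene Rbfox3 (-26.4 points), 1 of 5 neuronal markers. Of these regions, that of Cd74 lay 886 bp from the listed TSS and that of Cdh5 10075 bp. Those of Ptprc, Rbfox3 and Kdr lay 38494, 132471 and 142664 bp away. None of the 5 hepatocyte and 3 stellate cell markers was listed, and the part of other cell types in the results was not tested. Over all protein-coding genes, 5.06% were nearest to a tumor region. The normal and non-tumor liver lists hold far fewer regions, 107 and 57 against 1547 in tumors. Nothing is read from the marker counts.

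In tumors, 36 of the 49 member regions were positive and 13 negative. The positive share of 73.5% stands beside 68.7% in the whole tumor list, and nothing particular to the members is read from the gap. Nearest to a start site the picture was different in these members: all 4 regions within 1 kb of a TSS were negative, at the serotonin receptor gene Htr2a and the potassium channel genes Kcnd1, Kcng1 and Kcnj5. Of all 72 tumor regions within 1 kb, 50% were negative, so 4 regions of 1 sign do not set the members apart from that list.

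The sequences upstream of the starts differed widely in CpG content. RefSeq (GRCm38.p6, the assembly also called mm10) held a promoter for 27 of the 41 genes and for 4 of the 6 with a tumor region within 2 kb of the listed TSS. The 250 bases before the RefSeq start are printed for 3 of the 4: Htr2a, listed in both normal liver and tumor; Kcnj5, negative within 1 kb; and Trpc5, whose region was the positive one closest to a TSS. Capitals mark CpG sites, and each line runs 5′ to 3′ on the strand of the gene. The windows are Htr2a at chr14:74640624-74640873 (+), Kcnj5 at chr9:32344345-32344594 (-) and Trpc5 at chrX:144688181-144688430 (-).
Htr2a: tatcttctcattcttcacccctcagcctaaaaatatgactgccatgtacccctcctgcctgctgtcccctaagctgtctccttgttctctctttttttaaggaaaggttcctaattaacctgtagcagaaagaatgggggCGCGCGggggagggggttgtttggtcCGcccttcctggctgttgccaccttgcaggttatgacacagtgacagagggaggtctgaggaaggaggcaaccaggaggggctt
Kcnj5: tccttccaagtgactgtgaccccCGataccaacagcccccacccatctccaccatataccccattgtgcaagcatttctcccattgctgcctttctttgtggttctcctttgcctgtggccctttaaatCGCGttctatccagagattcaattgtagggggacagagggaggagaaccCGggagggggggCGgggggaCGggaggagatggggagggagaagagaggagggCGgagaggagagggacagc
Trpc5: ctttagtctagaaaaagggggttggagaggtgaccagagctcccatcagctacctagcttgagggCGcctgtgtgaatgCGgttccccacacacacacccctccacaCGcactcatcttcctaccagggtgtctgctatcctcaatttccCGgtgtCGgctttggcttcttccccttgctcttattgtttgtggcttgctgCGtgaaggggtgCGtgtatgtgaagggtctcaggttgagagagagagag

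The RefSeq start lay 35 bp from the listed TSS at Htr2a and 108 bp from it at Kcnj5, and within 1 bp of it at Trpc5 and Kcnma1. The Htr2a window held 4 CpG sites, most of them directly next to each other, and those of Kcnj5 and Trpc5 held 7 each, against a median of 6 over the 32851 upstream windows of the table. The fourth window found, that of Kcnma1, is not printed and was far richer, with 31 CpG sites and a GC content of 79.2%. The MspI site CCGG, which reads the same on both strands, occurred 0 times in the Htr2a window 1 time in each of the other printed windows and 7 times in that of Kcnma1, and 47.1% of all windows held it. None of the 51 member regions overlapped a promoter window of the table, so the methylation values below do not belong to the printed bases. Between window and region lay 743 bases (normal liver) and 825 bases (tumor) at Htr2a, 1000 at Kcnj5 and 1942 at Trpc5. The Htr2a and Kcnj5 regions began 860 and 893 bp downstream of the listed TSS in the tumor table, and the Trpc5 region 1942 bp downstream.

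**Figure D1:**
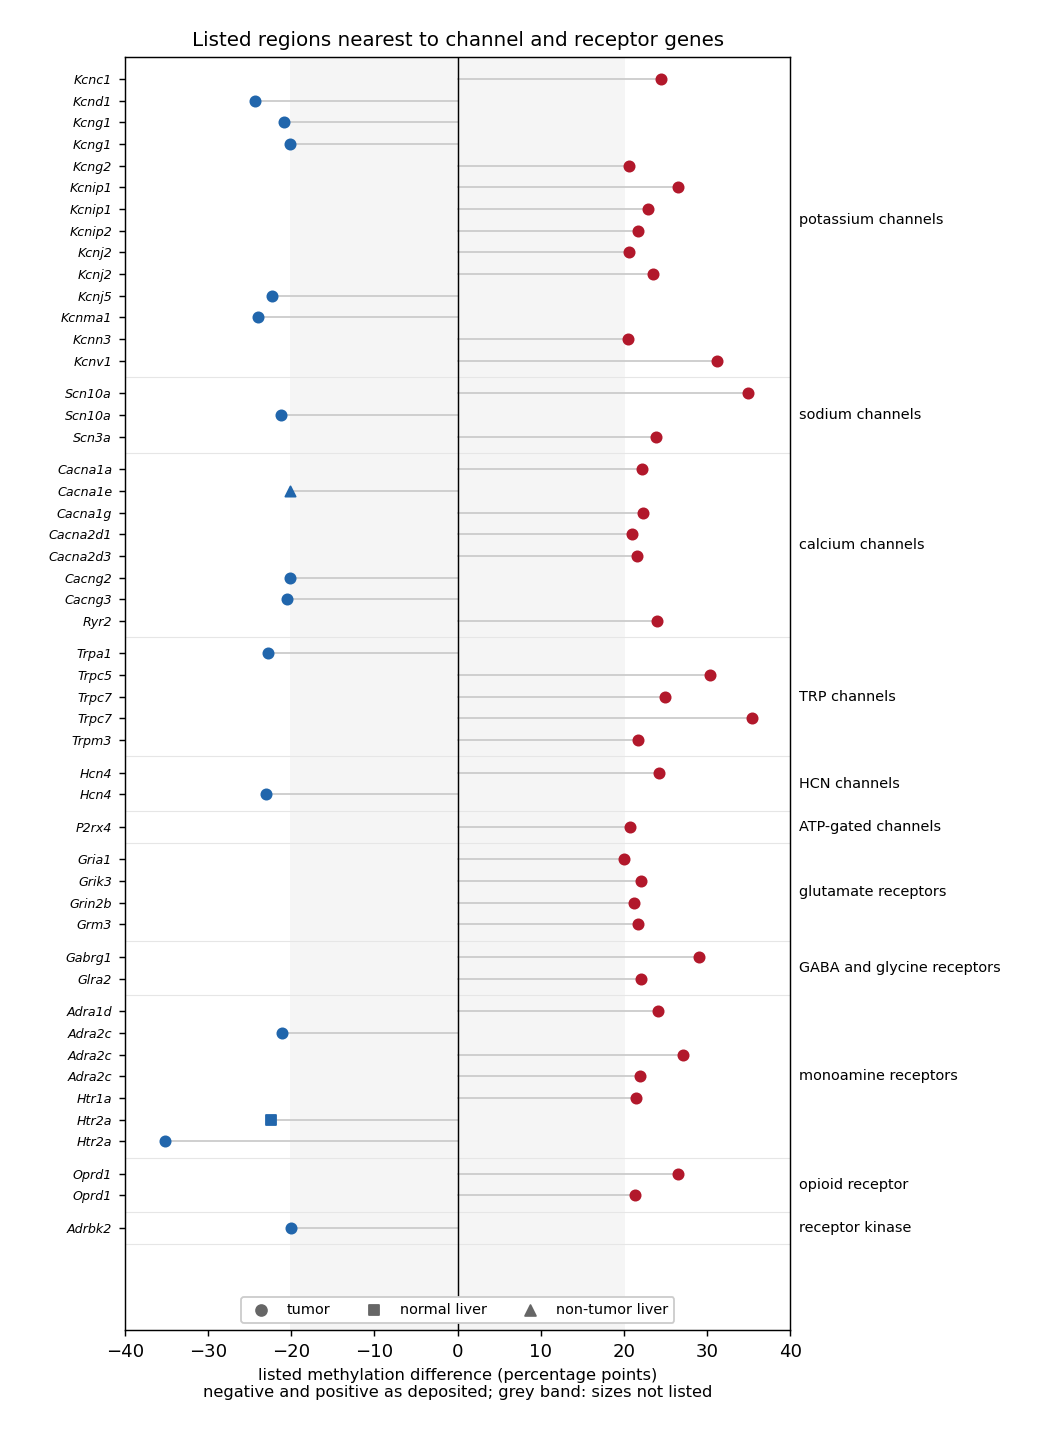
Listed methylation difference (x axis, percentage points) of 49 of the 51 member regions, 1 row per region, grouped by gene family; circles are tumor, the square normal liver and the triangle non-tumor liver, with red for positive and blue for negative values. Tumor values run from -35.1 points at Htr2a to 35.3 points at Trpc7, and sizes under 20 points were not listed.

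Htr2a encodes a serotonin receptor that signals through Gq to phospholipase C and is known from cortex, platelets and, in liver, from stellate cells. It was the only member gene listed in more than 1 tissue. In normal liver the authors' deposited table gave -22.4 points over 6 CpG sites, 3 of them DMCs (chromosome 14, 74641617 to 74641878, mm10). In tumors it gave -35.1 points over 4 CpG sites, all of them DMCs (74641699 to 74641878). Both regions lay inside the Htr2a span, began 778 and 860 bp downstream of the TSS and ended at the same base, and the 180 bp of the tumor region fell wholly within the 262 bp of the normal one. The normal and tumor comparisons do not share control samples by their labels, and the difference between -22.4 and -35.1 points was not tested. Normal liver and tumor had 11 overlapping regions in all, 5 with the same sign, and the Htr2a pair was the only one near a member gene. Among the 484 negative tumor regions, that of Htr2a ranked 12 by size, and in normal liver, where 69.2% of regions were negative, it ranked 33 of 74.

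In non-tumor liver the single member was Cacna1e, the pore subunit gene of R-type calcium channels. The authors' deposited table gave -20.2 points over 5 CpG sites with 1 DMC (chromosome 1, 154789087 to 154789358). It was the smallest of the 23 negative differences of that list, of whose regions 40.4% were negative. The region lay 63168 bp upstream of the listed TSS but inside the 494 kb span of the gene, within which the listed TSS also falls, and inside the noncoding gene Gm51649. Cacna1e was not listed in tumors or normal liver.

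Potassium channel genes had the most tumor regions, 15 at 12 genes, with 10 positive and 5 negative. How many genes of the rule belong to each family was not counted, so nothing is read from this rank. The negative potassium channel regions sat close to start sites. Kcng1, which encodes a modifier subunit that forms channels only together with other voltage-gated subunits, had 2 regions, both negative: the authors' deposited table gave -20.8 points over 35 CpG sites with 13 DMCs, 182 bp downstream of the TSS (chromosome 2, 168268739 to 168269149), and -20.1 points over 4 sites with 1 DMC, 4629 bp upstream of that TSS and still inside the gene span. Kcnd1, a gene of the rapidly inactivating A-type channels, was given -24.3 points by the authors' deposited table, 795 bp upstream of its TSS (chromosome X, 7822982 to 7823048; 1 DMC among 3 sites). Kcnj5, which encodes an inward rectifier opened by G proteins, stood there at -22.3 points (chromosome 9, 32343107 to 32343344; 3 DMCs among 7 sites). Kcnma1, the gene of the large-conductance calcium-activated channel, stood there at -24.0 points 1507 bp downstream of its TSS, with 1 DMC among 3 sites. Of these 5, the Kcnd1 region lay outside any gene span, and the others inside their own gene.

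The positive potassium channel regions lay farther out, from 9560 to 273270 bp from the TSS. Kcnv1, which encodes a modifier subunit like Kcng1, stood at 31.1 points in the authors' deposited table (3 DMCs among 4 sites, 206805 bp upstream and outside any gene span). Both Kcnip1 regions were positive in that table, at 26.5 points over 12 sites with 7 DMCs and at 22.9 points over 3 sites with 1 DMC, and both lay inside its 364 kb span. Kcnip1 and Kcnip2 (21.7 points) encode calcium-binding partners of the A-type channels, the family of Kcnd1, which itself was negative. Both regions of the inward rectifier gene Kcnj2 were positive in the authors' deposited table, one inside the gene (20.6 points) and one 273270 bp away (23.5 points). Kcnc1 (24.4 points, 3 DMCs among 5 sites), Kcng2 (20.6 points) and Kcnn3 (20.4 points) were positive in that table too, each inside its own gene.

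Among the sodium channel genes, 3 regions were positive and 1 negative. Scn10a, whose channel is known from pain-sensing neurons, had 1 of each sign in the authors' deposited table: 34.9 points 6439 bp upstream of the TSS (chromosome 9, 119725470 to 119725492; 2 DMCs among 3 sites within 23 bp), and -21.2 points 46387 bp upstream (119765418 to 119765697; 6 DMCs among 15 sites). The negative region lay inside the neighbouring sodium channel gene Scn11a, although its nearest TSS was that of Scn10a. Scn3a stood at 23.8 points in that table with 5 DMCs among 9 sites, 42835 bp upstream and outside any gene span.

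Calcium channel genes had 5 positive and 2 negative tumor regions, and all 7 differences were under 25 points. The positive ones in the authors' deposited table were the intracellular release channel gene Ryr2 (24.0 points), the pore subunit genes Cacna1g (22.3 points, T-type) and Cacna1a (22.1 points, P/Q-type), and the auxiliary alpha2delta subunit genes Cacna2d3 (21.5 points) and Cacna2d1 (21.0 points). These 5 lay inside the listed genes, 31229 to 246592 bp downstream of the TSS, that of Cacna1g also inside the noncoding gene Gm51872. The 2 negative values in that table were at Cacng2 (-20.2 points, 3 DMCs among 9 sites, inside the gene) and Cacng3 (-20.5 points, 1 DMC among 3 sites). Both genes are named for calcium channels but are best known as auxiliary subunits of AMPA-type glutamate receptors. The Cacng3 region lay 101800 bp upstream of its TSS, inside the kinase gene Prkcb.

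The TRP channels, cation channels that sense lipids, temperature or irritants, had 4 positive regions and 1 negative. Trpc7 had the largest positive difference of all members in the authors' deposited table, 35.3 points with all 3 sites DMCs, 126453 bp upstream of its TSS and outside any gene span (chromosome 13, 57022241 to 57022281), and a second positive region of 24.98 points 2778 bp downstream of the TSS, inside the gene. Trpc5 stood at 30.3 points in that table with 3 DMCs among 4 sites (chromosome X, 144686069 to 144686238). Trpm3 was positive there too (21.7 points, 105121 bp downstream, inside the gene). Trpa1, the gene of the irritant receptor of sensory nerves, was negative in that table (-22.8 points, 4 DMCs among 7 sites), but its region lay 78699 bp downstream of the TSS, past the end of the gene and inside the pseudogene Smt3h2-ps4. Hcn4, which encodes a pacemaker channel of the heart, had 24.3 points with 4 DMCs among 7 sites, 10919 bp downstream of the TSS, and -23.0 points with 1 DMC among 3 sites, 26385 bp downstream, in the authors' deposited table. Both Hcn4 regions lay inside the gene. The ATP-gated channel gene P2rx4 stood at 20.7 points in that table, in a region inside the neighbouring kinase gene Camkk2.

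Receptor genes for transmitters had 12 positive and 2 negative tumor regions at 11 genes. The sign counts of this and the other gene families stand beside 68.7% positive in the whole tumor list. Beyond 100 kb, where the Grm3, Grin2b, Gabrg1 and Glra2 regions lay, 80.4% of the list was positive. Nothing particular to the receptors is read from these counts. All 4 glutamate receptor regions had positive values in the authors' deposited table: the kainate receptor gene Grik3 (22.0 points), the metabotropic receptor gene Grm3 (21.7 points), the NMDA receptor gene Grin2b (21.2 points) and the AMPA receptor gene Gria1 (20.01 points). They sat in the lower part of the listed sizes, and those of Grm3 and Grik3 lay upstream of the gene and outside any gene span. The inhibitory receptor genes were positive too in that table, Gabrg1 (GABA) at 29.0 points and Glra2 (glycine) at 22.1 points, 312254 and 342569 bp from the listed TSS and both outside any gene span. The largest of these values, that of Gabrg1, rested on 1 DMC among 4 sites.

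Adra2c, an adrenergic receptor gene that restrains noradrenaline release, had the most regions of any member, 3. The authors' deposited table gave 27.1 points 3565 bp and 21.9 points 6845 bp downstream of the TSS (chromosome 5, 35282130 to 35282392 and 35285410 to 35285627), both past the end of the 3.2 kb gene, and -21.1 points 26128 bp upstream, inside the noncoding gene Gm40281. Adra1d, an adrenergic receptor gene of smooth muscle, was positive there at 24.1 points with 1 DMC among 3 sites, inside the gene and the overlapping noncoding gene Gm39938. Htr1a, a serotonin receptor gene coupled to inhibitory G proteins, was positive at 21.4 points in that table, 31405 bp upstream and inside the noncoding gene Gm31130, whereas Htr2a was negative as described. The kinase gene Adrbk2 had the smallest negative value of the whole tumor list, -20.01 points with 1 DMC among 7 sites, inside the gene now called Grk3.

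Oprd1 encodes the delta opioid receptor and carried the CpG-richest member region. The authors' deposited table gave 26.5 points over 75 CpG sites with 43 DMCs, in 776 bp inside the gene (chromosome 4, 132113547 to 132114322), 30164 bp downstream of the TSS and toward the far end of the 34.3 kb span. By number of CpG sites it ranked 8 of the 1547 tumor regions. The second Oprd1 region, 10145 bp downstream, stood at 21.4 points with 1 DMC among 6 sites in that table. In tumors, 4 of the 49 member regions held 10 or more CpG sites, against 203 of 1547 in the whole list. These 4 were at Oprd1, Kcng1, Scn10a (15 sites) and Kcnip1 (12 sites), and 2 of them were positive. All sites were DMCs in 2 tumor member regions (4.08%), at Htr2a and Trpc7, against 1.87% of the whole tumor list.

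**Figure D2:**
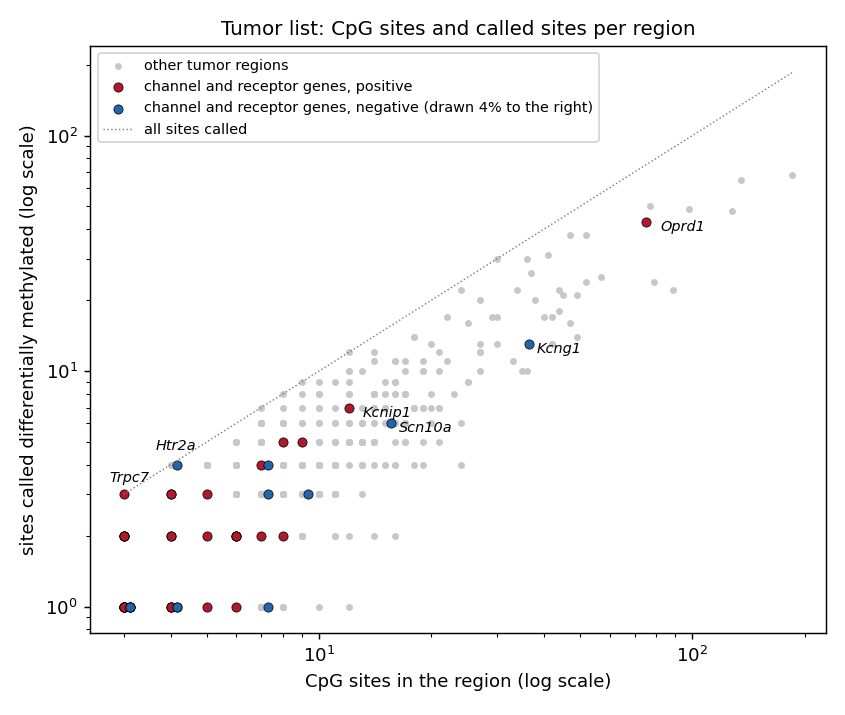
CpG sites per tumor region (x axis, log scale) against the number of those sites called differentially methylated (y axis, log scale); grey points are other tumor regions, red and blue points member regions with a positive and a negative difference, with the negative ones drawn slightly to the right so that overlapping points can be seen. Oprd1, with 43 of 75 sites, and Kcng1, with 13 of 35, stand far to the right of most members, whose median was 4 sites.

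Of the 40 member genes in the tumor list, 8 had 2 or more regions. The members held 49 regions at 40 genes, and the whole tumor list 1547 regions at 1347 genes. The share of genes with 2 or more regions in the whole list is not given here, so nothing is read from the 8. In 4 of these 8 genes all regions were positive (Kcnip1, Kcnj2, Oprd1 and Trpc7). In 1 all were negative (Kcng1), and in 3 the signs were mixed (Adra2c, Hcn4 and Scn10a). Regions of 1 gene are not independent of each other, and counted once per gene, by its largest difference, 77.5% of the 40 genes were positive. This count by gene was added after the values had been seen, and no such count over the genes of the whole list stands beside it. The 77.5% is therefore not compared with the shares by region.

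**Figure D3:**
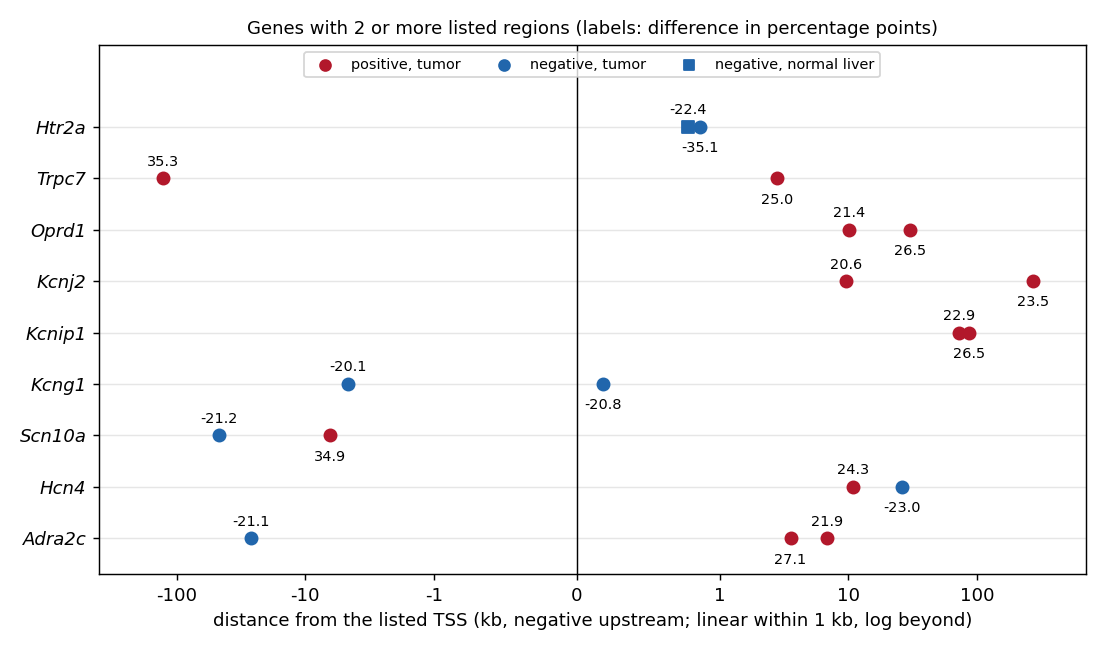
Distance from the listed TSS (x axis, kb, negative upstream, linear within 1 kb and log beyond) of every listed region of the genes with 2 or more regions (y axis); red is positive, blue negative, circles are tumor and the square is normal liver, and labels give the difference in percentage points. The Htr2a regions of normal liver and tumor sit side by side with -22.4 and -35.1 points, and Adra2c, Hcn4 and Scn10a show both signs.

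By distance, the member regions went from negative near the TSS to mostly positive far from it. Within 10 kb, 6 of 13 were positive, against 59.6% of the whole tumor list at that distance. Between 10 and 100 kb, 20 of 25 (80%) were positive, against 67.7% of the list, and beyond 100 kb 10 of 11 were, against 80.4%. The list as a whole has the same order, so the pattern is not particular to the members. The sizes of the differences were close to those of the list, with a median of 22.2 points among positive and -21.2 points among negative members, against 22.9 and -23.1 points. Differences of at least 25 points made up 20.4% of the members and 29.0% of the list. A single DMC supported 44.9% of member regions and 35.6% of all tumor regions, and 38.8% and 33.7% held just 3 CpG sites.

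**Figure D4:**
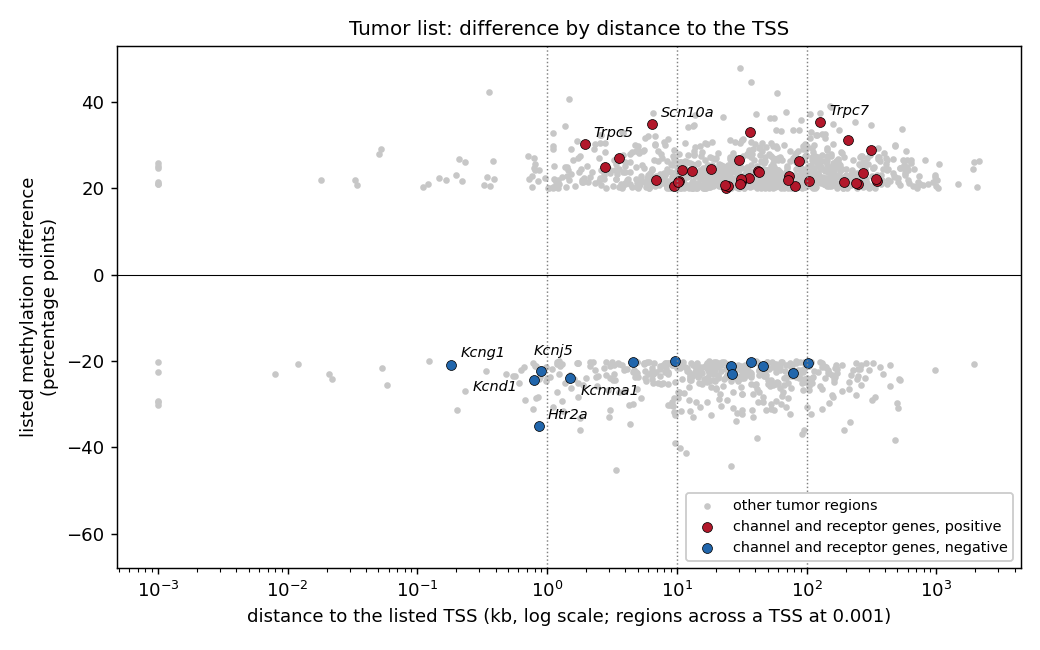
Listed methylation difference (y axis, percentage points) of every tumor region against its distance to the listed TSS (x axis, kb, log scale); grey points are other regions, red and blue points members with positive and negative values, and dotted lines mark 1, 10 and 100 kb. The 4 members within 1 kb, Htr2a, Kcnd1, Kcng1 and Kcnj5, are all negative, and 10 of the 11 beyond 100 kb are positive.

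Of the member regions, 31 of 49 (63.3%) lay inside the gene they were listed for, against 33.2% of the tumor list, and 24.5% against 44.9% lay outside any gene span. Only 26.5% lay upstream of the listed TSS, against 43.8%. The members are protein-coding genes, whereas the tumor list also holds regions listed under noncoding genes, such as Mir1963 with a span of 59 bp. Shares over regions of protein-coding genes alone were not computed, so none of these gaps is read as particular to the members. Genes of the rule are long: the 304 protein-coding genes that it finds in RefSeq have a median span of 38.0 kb, against 17.1 kb over all 21900 protein-coding genes. Of the 304, 39 (12.8%) were nearest to a tumor region by current symbol, against 5.06% of all protein-coding genes, and those 39 had a median span of 95.6 kb, against 37.7 kb for all listed protein-coding genes. The part of gene length and of the number of MspI fragments per gene in these shares was not tested.

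Assignment by nearest TSS missed 12 tumor regions that lay inside the span of a gene with a symbol of the rule but were listed under another gene. Of these, 9 were positive and 3 negative, against 70.5% positive among all tumor regions outside the gene they were listed for. The largest differences in the authors' deposited table were -31.2 points inside the glycine receptor gene Glra1 (listed under Gm12238, all 3 sites DMCs), 27.4 points inside the skeletal muscle calcium release channel gene Ryr1 (listed under Mir1963, 6 DMCs among 10 sites) and 26.3 points inside the acid-sensing channel gene Asic2 (listed under 5530401A14Rik). Asic2 held a second positive region there (21.1 points). Grik3 and Grin2b, each positive by nearest TSS, gained 1 further positive region inside the gene in that table (22.7 and 21.7 points). Cacng2 and Kcnip2, at -20.2 and 21.7 points by nearest TSS, gained a region of the opposite sign in that table (20.5 and -22.6 points). The Glra1 value was opposite in sign to that of Glra2, so the inhibitory receptor genes were not positive throughout. Cacna1g, Cacna1c, Cacna2d2 and the scaffold gene Grid2ip held the rest, at 20.2, 20.8, 23.2 and -24.9 points in the authors' deposited table.

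Genes of the same pathways outside the naming rule had both signs. Other channels, gap junctions, receptors, synapse genes, transmitter enzymes and G protein genes had 37 tumor regions, 22 positive and 15 negative (59.5% positive, against 68.7% of the list). Other channels and gap junctions had 8 positive and 3 negative regions, among them the pannexin gene Panx2 (-28.4 points, 856 bp downstream) in the authors' deposited table. Other transmitter and peptide receptors had 3 positive and 1 negative, of which 1 of each sign was at the neurotensin receptor gene Ntsr1 (20.8 and -23.3 points in that table). The set of synaptic scaffold and adhesion genes, which also took in Fgf14, Syt13 and Vamp3, had 6 of each sign. Among them was Slitrk5, a synaptic adhesion gene, at -26.5 points with 10 DMCs among 17 sites in the authors' deposited table. G protein and adenylyl cyclase genes had 5 positive and 4 negative regions, 3 of them at the cyclase gene Adcy1 (22.2, 20.7 and -29.5 points in that table).

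Transmitter enzymes had 1 region in each list, and each was negative in the authors' deposited table. They were Gad2, a GABA synthesis gene, in normal liver (-26.4 points), Dbh, a noradrenaline synthesis gene, in non-tumor liver (-26.4 points) and Tph2, the serotonin synthesis gene of neurons, in tumors (-28.6 points). Of all listed regions, 69.2% in normal liver and 40.4% in non-tumor liver were negative, while 68.7% in tumors were positive. With 1 region per list, no pattern of these genes is read from the signs. The Gad2 and Dbh regions lay inside the neighbouring genes Myo3a and Sardh, and the Tph2 region inside Tph2 itself. The only other region of these families outside tumors was that of Syt6, a synaptotagmin gene, in normal liver (22.5 points in that table).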

How the data were processed

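Liver DNA was profiled by RRBS after MspI digestion and bisulfite conversion, per the labels' protocols. The submitters' processing notes name the build mm10 and the tools methylKit, Bismark, Trim Galore and bedtools (2.25.0). How regions were called, and with which coverage and significance limits, is not given in the sources used here; depth per sample is unknown here. The authors deposited 3 lists, 1 per tissue, of called regions with a methylation difference in percentage points, numbers of CpG sites and DMCs, and the nearest TSS.

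Lists were read with pandas 2.3.3. The listed TSS distance matched the nearest edge within 1 bp in all 1711 regions. All 51 member accessions matched RefSeq (GRCm38.p6) genes, and a region was inside a gene when it overlapped its span by at least 1 bp; exons and introns were not told apart. The rule of named genes took all members outside tumors and, in tumors, the 10 largest differences of each sign, regions within 10 kb of a TSS or with 10 or more CpG sites, and genes with 2 or more regions or in more than 1 list. Members outside this rule are named within their gene family, most with their listed difference and some with site numbers, which goes beyond the rule. Members, families and lists were chosen with earlier results of these data known. Adrbk2 was set apart from channels and receptors, and genes that only share a symbol start with a family outside the rule were dropped, after the symbols had been seen. Alternatives were at least 2 DMCs, at least 25 points, assignment by gene span, within 100 kb of the TSS, leaving out Adrbk2, and an overlap of at least 50% of each region. The values of a few genes are not reported here, although counts include their regions.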

Additional observations from a re-analysis of the deposited data

How the results depend on the processing

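Stricter limits shortened the member lists, which follows from their construction. With at least 2 DMCs per region, 27 of 49 tumor members were left (7 within 10 kb of the TSS, 16 inside the listed gene), and 0 in non-tumor liver. With at least 25 points, 10 tumor members were left (4 within 10 kb, 5 inside the listed gene), 90% of them positive with a median size of 30.7 points, and 0 members in normal and in non-tumor liver. The whole tumor list had 449 regions of that size, whose positive share is not given here, so nothing is read from the 90%. A list with no member left gave no positive share. The tumor positive share ranged from 68.4% (within 100 kb of the TSS) to 77.8% (at least 2 DMCs) under the other alternatives. It was 75% without Adrbk2 and 74.4% by gene span. Most of these alternatives are subsets of the same 49 regions. Shares of the whole list under the same limits are not given here, so nothing is read from these values. The Htr2a overlap of normal liver and tumor held at 50% of each region. In lists that give 1 difference per comparison, no replicate could be left out. No paired analysis was possible because the lists hold no values per sample, although the AATn and AATt labels share replicate numbers. Depth is unknown here, and differences under 20 points were not listed.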
